A study of Mus musculus with 11 samples.

Results

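The genes described here are 10: 5 cadherins (Cdh1, Cdh2, Cdh6, Cdh11 and Cdh16), the epithelial adhesion gene Epcam, the intermediate filament gene Vim and 3 transcription factors of epithelial-mesenchymal transition (Snai2, Zeb2 and Twist1). They were chosen by symbol, and all 10 were found among the 28692 genes counted in each library. The samples were single-cell suspensions of mouse kidney, with 1 library per mouse: 5 control libraries, 3 after unilateral ischemia/reperfusion (UIR) and 3 after unilateral ureteral obstruction (UUO). All mice were C57Bl/6 males of 10 weeks for which no transgene or gene deletion is named. UIR mice had the left renal pedicle clamped for 30 minutes, UUO mice had the left ureter tied for good, and both were collected at day 28, whereas controls were naive. All kidneys were dissociated with a cold-active protease, so each value is for the cells that survived dissociation. The control libraries carry 3 kinds of title (Ctrl, N and AN) and no injured library carries the latter 2, so whatever these titles stand for cannot be told apart from the groups.

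Cadherins are calcium-dependent adhesion proteins that bind their like on the neighboring cell. E-cadherin (Cdh1) and kidney-specific cadherin (Cdh16, Ksp-cadherin) hold tubular epithelial cells together, N-cadherin (Cdh2) is known in kidney mainly from the proximal tubule, K-cadherin (Cdh6) from the developing nephron, and OB-cadherin (Cdh11) from mesenchymal cells. Epcam is a homophilic adhesion molecule of most simple epithelia, and vimentin (Vim) is the intermediate filament protein of mesenchymal, endothelial and blood cells. In epithelial-mesenchymal transition a cell gives up epithelial adhesion genes and takes up mesenchymal ones, and Slug (Snai2), Zeb2 and Twist1 are transcription factors that can drive it, the first of them by binding E-box motifs in promoters such as that of Cdh1.

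The Epcam promoter is shown because Epcam, like Cdh16, changed in 4 of 5 tubular classes and because its upstream sequence holds the E-box that Snai and Zeb factors are known to bind. The 250 bases before its RefSeq start (GRCm38.p6, chr17:87635729-87635978, plus strand) hold CAGGTG or its reverse complement CACCTG at 2 places, in capitals:
Epcam: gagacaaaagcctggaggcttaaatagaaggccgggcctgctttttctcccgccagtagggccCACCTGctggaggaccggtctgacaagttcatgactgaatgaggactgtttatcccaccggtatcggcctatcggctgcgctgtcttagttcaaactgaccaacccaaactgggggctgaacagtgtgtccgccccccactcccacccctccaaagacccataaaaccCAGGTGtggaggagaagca
Of 32851 RefSeq promoters of the same length, 5657 (17.2%) hold at least 1 such hexamer on either strand, so a match is common. RefSeq promoters were searched for 5 of the 10 members, and none of those of Vim, Zeb2, Cdh6 and Twist1 holds it. Cdh2 was left out of this search by its chromosome. A match is a description of letters and not a binding site.

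In the mm10 annotation all 10 are protein-coding genes. Cdh1 (ENSMUSG00000000303) lies at chr8:106603351-106670246 on the plus strand, with Cdh16 (ENSMUSG00000031881, chr8:104601911-104624396) and Cdh11 (ENSMUSG00000031673, chr8:102632095-102785642) on the minus strand of the same chromosome. Epcam (ENSMUSG00000045394) spans chr17:87635979-87651129 on the plus strand. Cdh2 (ENSMUSG00000024304, chr18:16588877-16809246) and Cdh6 (ENSMUSG00000039385, chr15:13028701-13173675) are on minus strands. Vim (ENSMUSG00000026728) is at chr2:13573927-13582826 on the plus strand and Zeb2 (ENSMUSG00000026872) at chr2:44983632-45117395 on the minus strand. Snai2 (ENSMUSG00000022676, chr16:14705852-14709385) and Twist1 (ENSMUSG00000035799, chr12:33957671-33959829) are short genes on plus strands.

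Values are given as CPM (counts-per-million), a gene's UMIs scaled to the sum of all UMIs of a class in 1 library. UMIs count each captured transcript once from its 3′ end, so a level does not scale with transcript length. The libraries held 49503312 to 117043590 UMIs each. After filters 10218 cells were kept in controls, 16917 in UIR and 13328 in UUO, with medians of 2552 to 5089 UMIs per cell. Classes were named by markers that leave out the 10 genes: proximal tubule (PT), loop of Henle thick ascending limb (LOH), distal and connecting tubule as 1 class (DT/CNT), collecting duct principal (CD-P) and intercalated (CD-I) cells, failed repair tubular epithelial cells (frTECs) and stroma. Control, UIR and UUO cells numbered 4380, 1260 and 78 in PT, 263, 1217 and 710 in LOH, and 374, 352 and 95 in DT/CNT. They numbered 228, 350 and 361 in CD-P, 248, 460 and 241 in CD-I, 105, 696 and 278 in frTECs, and 84, 589 and 601 in stroma. Barcodes over the mitochondrial limit made up 57% to 78% of those called in controls, but 23% to 36% in UIR libraries and 3% to 8% in UUO libraries, so the controls had been filtered harder. Any pair of libraries shared 0 to 17 cell barcodes, at most 0.31% of the smaller. A class enters a test only with at least 20 cells in a library, which leaves 2 UUO libraries for PT and 3 control libraries for stroma.

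Differences are log2 fold changes ± standard error from edgeR's quasi-likelihood test on these sums, with p-values adjusted by Benjamini-Hochberg within each class over every gene tested there, and a threshold of 0.05. The fits rescale libraries by edgeR's TMM factors, which the CPM values do not carry, so fitted differences can depart from ratios of CPM. Overlap of libraries is judged on CPM. Over the 5 tubular classes, 22 member-by-class pairs had enough counts to test. Of these, 10 changed in UIR against control, 9 in UUO against control, and 1 differed between UUO and UIR. Between the models few genes of any kind differed in these classes: 0.12% in PT, 2.27% in LOH, 0.362% in DT/CNT and 2.23% in CD-I, beside 6.33% in CD-P, where the 1 member lay.

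Cdh1, Cdh16 and Epcam gave the epithelial side of the picture, and no tubular class lost them together. Epcam was higher than in controls in 4 of 5 tubular classes in at least 1 injury, Cdh1 in DT/CNT only, and Cdh16 in DT/CNT, LOH and PT, while Cdh16 fell in CD-P after obstruction. The share of all tested genes that changed in either direction stands beside each class below, since the distal classes changed widely.

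**Figure D1:**
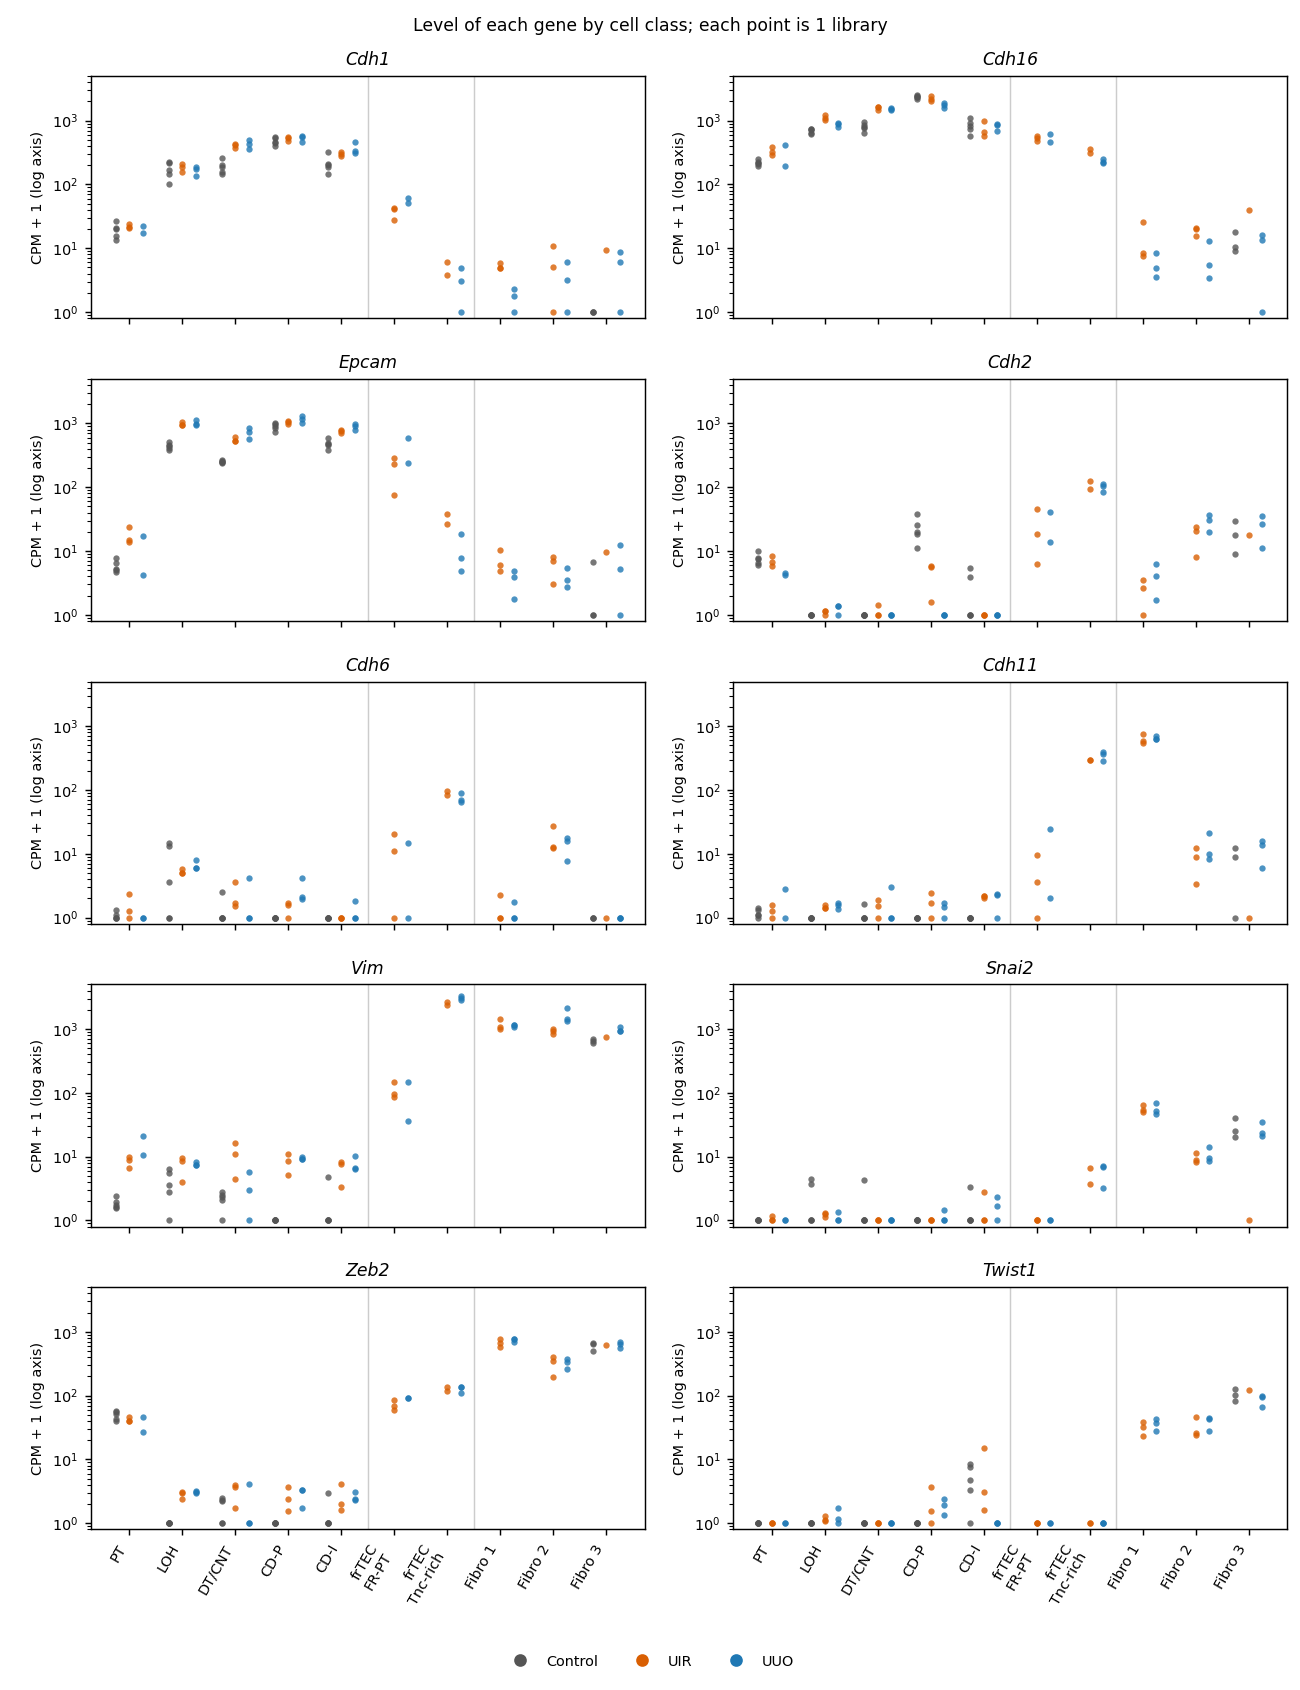
Levels of the 10 genes (CPM + 1, log axis) in tubular classes, 2 frTEC sub-clusters and fibroblast clusters, where each point is 1 library of control (grey), UIR (orange) or UUO (blue) mice. Of the classes plotted, Cdh1, Cdh16 and Epcam are highest in CD-P and at most 38.5 CPM in fibroblasts, Cdh11, Snai2 and Twist1 are highest in fibroblasts, with Cdh11 also in the Tnc-rich cluster, and Vim is highest in the Tnc-rich cluster.

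In DT/CNT all 3 testable members rose in both injuries, where 27% of all genes tested changed in UIR and 28.8% in UUO. Cdh1 in the 5 control libraries was 259, 146, 185, 202 and 153 CPM. In UIR it was 376, 435 and 409 CPM, and in UUO 359, 504 and 423 CPM. Every injured library lay above every control, with differences of 0.78 ± 0.15 (adjusted p = 0.000252) in UIR and 0.80 ± 0.16 (adjusted p = 0.000324) in UUO. At a mitochondrial limit of 50% these were 0.31 and 0.33 and were not called. Cdh16 was 948, 766, 803, 846 and 637 CPM in controls, 1628, 1490 and 1661 in UIR, and 1539, 1560 and 1475 in UUO. Again the groups did not overlap, and Cdh16 rose by 0.68 ± 0.14 (adjusted p = 0.000371) and 0.56 ± 0.14 (adjusted p = 0.00279). Epcam was 241, 245, 247, 268 and 254 CPM in controls, a narrow band, against 535, 538 and 611 in UIR and 836, 726 and 573 in UUO. It rose by 0.85 ± 0.13 (adjusted p = 1.19e-05) in UIR and by 1.14 ± 0.13 (adjusted p = 2.50e-07) in UUO.

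The DT/CNT cells of control and injured kidneys came mostly from different clusters. A cluster led by Pvalb and Slc12a3 held 212 control, 32 UIR and 10 UUO cells, 1 led by S100g and Calb1 held 161, 34 and 2, and 1 led by Scube3 and Slc12a3 held 1, 286 and 83. Summed over libraries, Epcam in the Pvalb cluster was 220 CPM in controls, 302 in UIR and 373 in UUO, and in the S100g cluster 268, 349 and 460. Cdh1 in the Pvalb cluster was 164, 258 and 270 CPM, and in the S100g cluster 235, 257 and 290. Both genes thus had higher sums in injured than in control cells inside the clusters that the groups share, by less than across the class. The Scube3 cluster was highest, at 601 and 757 CPM of Epcam and 436 and 440 CPM of Cdh1 in UIR and UUO. These sums have no replicate test.

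In LOH, where 32.3% and 37% of genes tested changed, Epcam rose in both injuries. Its control values were 382, 505, 461, 440 and 413 CPM, against 1067, 934 and 936 CPM in UIR and 1114, 975 and 928 CPM in UUO. No injured library overlapped the controls, and the differences were 0.92 ± 0.14 (adjusted p = 9.55e-06) and 0.96 ± 0.14 (adjusted p = 4.39e-06). Cdh16 was 724, 635, 743, 741 and 612 CPM in controls and 1015, 1080 and 1240 CPM in UIR, a rise of 0.44 ± 0.13 (adjusted p = 0.0104). Cdh16 in UIR was not called without UIR replicate 3 (0.35, adjusted p = 0.0855), without cells holding leukocyte UMIs (0.32, adjusted p = 0.0688) or at a mitochondrial limit of 50% (0.05, adjusted p = 0.747). In UUO it was 789, 922 and 899 CPM, above every control in level but with a fitted difference of 0.08 that did not pass the test (adjusted p = 0.666). Cdh1 overlapped in all groups, at 223, 167, 101, 217 and 144 CPM in controls, 157, 185 and 206 in UIR, and 132, 172 and 189 in UUO. Its fitted differences were -0.16 (adjusted p = 0.543) and -0.32 (adjusted p = 0.174), the former negative although the mean level was 183 CPM in UIR and 170.5 in controls. The mitochondrial limit set the direction of these 2 genes: at 15%, with 2 control pools of 41 cells left, Cdh1 in UIR was 1.09 and Cdh16 in UUO 0.94, while at 50% they were -0.47 and -0.32, each past the threshold. Cdh1 in UUO was 0.93 at 15% (adjusted p = 0.0862) and -0.64 at 50% (adjusted p = 0.000272). Epcam kept its rise at both limits, at 0.72 to 1.22. Control LOH cells came mostly from an Egf-led cluster (150 control, 29 UIR and 4 UUO cells) and a shallower one (111, 64 and 4). Injured LOH cells came from a cluster led by Slc12a1, Umod and Cldn10 (2, 802 and 294) and one led by Psca, Slurp1 and Mmp7 (0, 304 and 406). Summed Epcam in the Egf-led cluster was 445 CPM in controls, 585 in UIR and 526 in UUO, against 951 and 932 in the Slc12a1 cluster and 1099 and 1086 in the Psca cluster for UIR and UUO.

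Cdh16, a marker of differentiated tubule cells, was highest in CD-P in every group and fell there after obstruction. Its control values were 2170, 2380, 2439, 2505 and 2383 CPM, and its UUO values 1752, 1872 and 1566 CPM, so the groups did not overlap (-0.55 ± 0.13, adjusted p = 0.00134). UIR values of 2206, 2004 and 2473 CPM overlapped with the controls (-0.16, adjusted p = 0.424). In CD-P 18.6% of genes tested changed in UIR and 35.5% in UUO. Cdh1 in CD-P was 525, 403, 459, 544 and 448 CPM in controls, 534, 476 and 555 in UIR, and 470, 581 and 560 in UUO. These overlap, and the differences of 0.06 and 0.07 did not pass the test. Epcam in CD-P was 722, 978, 917, 842 and 1013 CPM in controls, 1102, 1060 and 989 in UIR, and 1309, 1167 and 1033 in UUO (0.16, adjusted p = 0.483, and 0.29, adjusted p = 0.105). Of the CD-P cells of UUO, 347 of 361 lay in a cluster led by Spink12 and Sprr2f that held 1 control and 173 UIR cells, while 13 lay in a cluster that held 113 control cells. In the latter, Cdh16 summed to 2044 CPM in controls, 2061 in UIR and 1666 in UUO, with 433 UMIs behind the UUO value. At a clustering resolution of 2, or with DT and CNT named apart, the Spink12 cluster took no name and CD-P of UUO could not be tested.

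In CD-I, 1 of 3 testable members rose in UUO and none passed in UIR, where 14.6% of genes tested changed in UIR and 27.4% in UUO. Epcam in controls was 385, 458, 486, 479 and 593 CPM, below the 985, 906 and 800 CPM of UUO (0.56 ± 0.14, adjusted p = 0.00526). In UIR it was 751, 794 and 706 CPM, also above every control, but the difference of 0.41 ± 0.14 missed the threshold (adjusted p = 0.0594). Cdh1 in CD-I was 146 to 327 CPM in controls, 276 to 327 CPM after UIR and 309 to 465 CPM after UUO, with no difference past the test (in UUO 0.44, adjusted p = 0.0836). Cdh16 in CD-I overlapped in all groups, at 568 to 1093 CPM in controls, 582 to 984 CPM after UIR and 700 to 883 CPM after UUO.

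**Figure D2:**
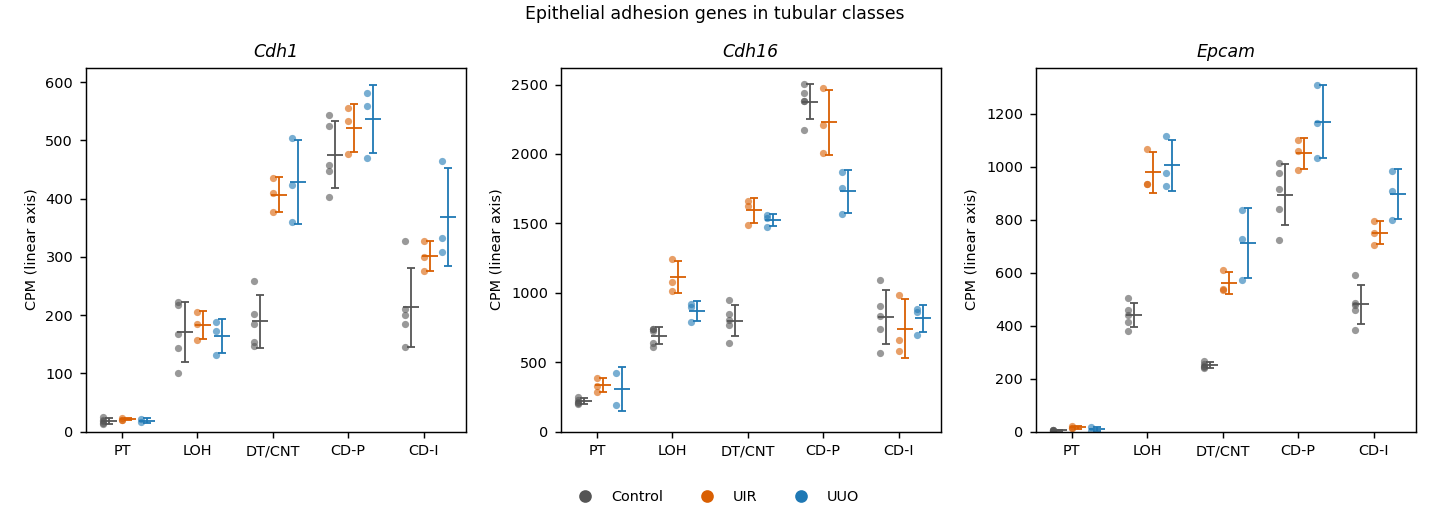
Levels of Cdh1, Cdh16 and Epcam (CPM, linear axis from 0) in the 5 tubular classes, with 1 point per library and bars for mean ± SD of control, UIR and UUO. Epcam of every injured library lies above every control in LOH, DT/CNT and CD-I, all 3 genes do so in DT/CNT, and Cdh16 of UUO lies below the controls in CD-P.

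PT cells had the lowest levels of these genes among the tubular classes, and Cdh16 was the most abundant of them. Cdh16 rose from 212, 196, 227, 209 and 251 CPM in controls to 285, 327 and 386 CPM in UIR (0.61 ± 0.15, adjusted p = 0.0187), where 9.43% of genes tested changed. That call was lost without UIR replicate 2 (0.61, adjusted p = 0.0731) or UIR replicate 3 (0.53, adjusted p = 0.0905). In UUO, where 3.67% changed, its 2 libraries stood far apart at 421 and 195 CPM (0.45, adjusted p = 0.269). Epcam was near the floor in controls, at 6.67, 3.67, 4.15, 4.01 and 5.6 CPM, and rose to 14, 22.6 and 12.7 CPM in UIR (1.79 ± 0.24, adjusted p = 0.000122). Its UUO values were 16.1 and 3.25 CPM (1.11, adjusted p = 0.428). Cdh1 overlapped, at 12.5 to 25.5 CPM in controls, 19.8 to 23.3 in UIR, and 21.5 and 16.3 in UUO. With an estimate of free RNA subtracted from each class, the differences in UIR were 2.22 ± 0.31 for Epcam and 0.63 ± 0.16 for Cdh16, and both still passed.

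CD-P had the highest mean and PT the lowest of the tubular classes for each of Cdh1, Cdh16 and Epcam in all 3 groups, but the classes between them came in different orders. In controls CD-P did not overlap with any other class for these genes, while CD-I, DT/CNT and LOH overlapped with their neighbors for Cdh1 and Cdh16. In UIR Cdh1 fell into separate steps, with means of 522 ± 41.0 CPM in CD-P, 407 ± 29.6 in DT/CNT, 301 ± 25.6 in CD-I and 183 ± 24.4 in LOH (SD, n = 3). In UUO each of the first 3 of these overlapped with its neighbor, at 537 ± 59.0, 429 ± 72.6 and 368 ± 84.0 CPM. Cdh16 in UIR stood at 2227 ± 235 CPM in CD-P, 1593 ± 90.7 in DT/CNT, 1112 ± 116 in LOH and 741 ± 213 in CD-I, with no overlap. For Epcam LOH came next to CD-P in UIR, at 979 ± 76.5 against 1050 ± 57.2 CPM, which overlapped, and DT/CNT was the lowest of these 4 classes at 561 ± 43.3 CPM. Fibro 1, 2 and 3 held 0 to 9.83 CPM of Cdh1 and up to 38.5 CPM of Cdh16. In injured libraries 12 of 16 values of Cdh1 and 15 of 16 of Cdh16 were at or below the level expected from free RNA. That level rests in part on endothelial genes, which summed to 19.1 to 208 CPM here against 3.27 to 11.9 CPM in LOH. It may thus be set too high in fibroblasts. The controls are not counted, since the estimated share of free RNA was at its limit of 100% in 2 of their 3 Fibro 3 values.

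N-cadherin (Cdh2) was low in every tubular class, and its clearest change was a loss from CD-P. Control CD-P libraries held 19.2, 36.4, 10.2, 17.4 and 24.5 CPM from 64 UMIs in all. UIR libraries held 0.57, 4.7 and 4.9 CPM from 15 UMIs, and the 3 UUO libraries held none. Cdh2 fell by 2.79 ± 0.49 on the log2 scale in UIR (adjusted p = 0.000388). Against a floor of 3 UMIs over the UUO libraries, its level in UUO was at least 52.1-fold lower than in controls (adjusted p = 3.03e-07) and at least 7.60-fold lower than in UIR (adjusted p = 0.0110). The difference between the models was not called without UIR replicate 2 (adjusted p = 0.0528) or UIR replicate 3 (adjusted p = 0.0621), at a mitochondrial limit of 15% (adjusted p = 0.132), or without cells holding leukocyte UMIs (-2.94, adjusted p = 0.469). Cdh2 came almost wholly from 1 cluster, led by Aqp4 and Aqp2, with 38.6 CPM and 114 control, 30 UIR and 1 UUO cells. The other CD-P clusters held 1.2 CPM (113, 147 and 13 cells) and 0.3 CPM (1, 173 and 347 cells), and the fall in the class went with a smaller share of cells from the Aqp4 cluster. In PT, Cdh2 was 8.96, 5.5, 6.51, 5.04 and 6.78 CPM in controls, 5.82, 4.93 and 7.35 in UIR, and 3.58 and 3.25 in UUO, and neither difference passed. LOH, DT/CNT and CD-I had 0 to 4.34 CPM.

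Cdh6 and Cdh11 were close to absent from the 5 tubular classes. Cdh6 reached 13.9 CPM in 1 control LOH library and was 0 to 12.3 CPM in the other 4, 3.93 to 4.81 in UIR and 5 to 6.9 in UUO, with 0 to 3.2 CPM in the other tubular classes. Cdh11 did not exceed 1.98 CPM in any tubular class and library. Both genes were high in a sub-cluster of frTECs, described below.

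Vimentin was higher in injured than in control PT and CD-P, at 0.403 to 2.03 times the level expected from the RNA in empty droplets. In PT, controls had 0.914, 0.764, 1.38, 0.572 and 0.646 CPM of Vim, UIR 7.85, 9.02 and 5.65 CPM, and UUO 19.7 and 9.76 CPM. The groups did not overlap, with differences of 3.16 ± 0.31 (adjusted p = 3.73e-06) and 4.10 ± 0.58 (adjusted p = 0.000484). The call in UUO was lost without UUO replicate 2 (3.39 ± 1.10, adjusted p = 0.190) and without cells holding leukocyte UMIs (3.02 ± 1.20, adjusted p = 0.252). In CD-P all 5 controls were at 0, UIR had 7.42, 10.1 and 4.2 CPM, and UUO 8.95, 8.24 and 8.22 CPM. Against a floor of 3 UMIs over the control libraries, this is at least 7.06-fold higher in UIR (adjusted p = 0.000893) and at least 8.20-fold higher in UUO (adjusted p = 0.000168). In 11 alternatives, among them leaving out 5 of the 6 injured libraries in turn, Vim in CD-P had too few counts to be tested. In LOH, control values of 0 to 5.44 CPM overlapped with 2.97, 8.38 and 7.5 CPM in UIR, and the test was not passed in either model. At a mitochondrial limit of 50% it was passed in both (1.85 ± 0.51, adjusted p = 0.00504, and 2.004 ± 0.52, adjusted p = 0.00275). In CD-I Vim was 0 to 3.74 CPM in controls and 2.4 to 9.2 CPM in injury, and in DT/CNT it did not exceed 15.2 CPM.

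Leukocyte markers moved with Vim. The summed level of the leukocyte list in PT was 5.76 to 9.15 CPM in controls, 98.6 to 158 CPM after UIR and 156 to 159 CPM after UUO, and in CD-P 10.2 to 56.5, 114 to 152 and 122 to 178 CPM. The leukocyte and endothelial lists, set against the profile of each library's empty droplets, gave a share of free RNA per class, and that share times the Vim level of the droplets gave an expected Vim level. Of 29 tubular values in injured libraries, 9 exceeded the expected level and 0 exceeded it 3 times over. Measured over expected ran from 0 to 2.03 with a median of 0.728. In UIR, PT ratios were 0.966 to 1.19, and in UUO CD-P 0.673 to 0.973. With this estimate subtracted, Vim had too few counts left to be tested in PT or CD-P.

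**Figure D3:**
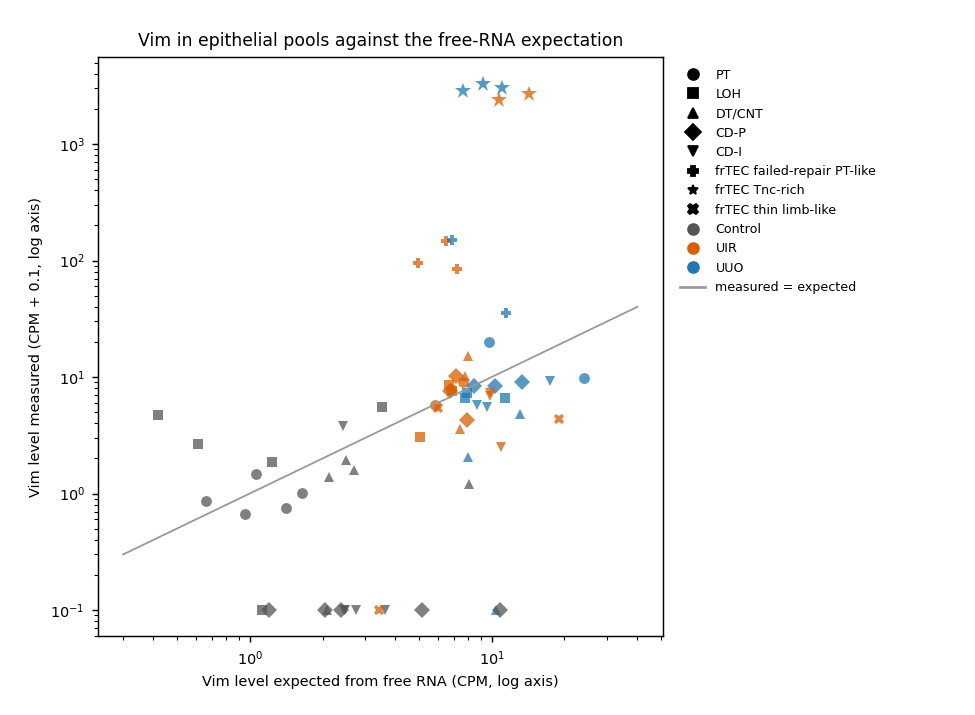
Measured level of Vim (CPM + 0.1, log axis) against the level expected from free RNA (CPM, log axis) for each class and injured or control library, with a line where both are equal. Tubular classes of injured libraries lie around or below the line, at ratios of 0 to 2.03, the failed-repair PT-like cells at 3.11 to 22.8, and the Tnc-rich cells at 189 to 371.

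Of the 3 transcription factors, only Zeb2 had enough counts to be tested in a tubular class, and only in PT, where it gave no call. Zeb2, a zinc-finger repressor, was seen mainly in PT, where it was 38.9, 50.7, 56.1, 42.7 and 54.6 CPM in controls, 38.7, 38.6 and 46.1 in UIR, and 44.8 and 26 in UUO. These values overlapped (-0.23, adjusted p = 0.329, and -0.46, adjusted p = 0.422). LOH, DT/CNT, CD-P and CD-I held 0 to 3.15 CPM, so Zeb2 set PT apart from the other segments in every group. Within PT, Zeb2 varied between clusters: 3 clusters with 2944 cells had 8.46 to 9.40 CPM, and the other 7, with 2774 cells, had 20.6 to 83.8 CPM. Median depth was 3558 to 5797 UMIs per cell in the former and 3736 to 23171 in the latter. The median mitochondrial share was 16.2% to 23.6% and 16.6% to 23.2%. Sorted by depth, the clusters did not overlap in Zeb2. Those with medians of 3558 to 5797 UMIs held 8.46 to 28.02 CPM, and those with 10781 to 23171 UMIs held 41.6 to 83.8 CPM. The part of depth in this difference was not tested. Snai2 did not exceed 3.52 CPM in any tubular class. Twist1 was 0 in PT and DT/CNT, at most 2.69 CPM in CD-P and at most 0.726 in LOH. In CD-I it was 0 to 7.34 CPM in controls and 0 in UUO, and reached 14.0 CPM in 1 UIR library, where an intercalated cluster with 15.4 CPM over 87 cells carried it.

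The frTECs, a class defined in the markers by Vcam1, Cp, Slc14a2, Cryab, Spp1 and Krt8, held sub-clusters that differed in these genes. None of 8 testable members differed between UUO and UIR in frTECs as a whole (edgeR adjusted p), where 0% of 10205 genes passed and 407 had an unadjusted p under 0.05. DESeq2 called 3 genes there, none of them a member. Library titles carry the number 1 or 2 or none, which is not the replicate number used here, and the labels do not say what it stands for. UIR and UUO libraries of the same title number deviated together in frTECs. With the title number as a block, where unnumbered libraries formed a block of their own, 22 genes were called, again no member. Cdh1 in all frTECs was 133, 84.8, 73.1 and 127 CPM in 4 control libraries, against 66.9, 42.9 and 50 CPM after UIR and 53.1, 42.7 and 38.2 CPM after UUO. These groups did not overlap, but their frTECs came from different sub-clusters, which are given apart. Failed-repair PT-like cells (12 control, 312 UIR and 86 UUO, in 2 clusters) held Cdh1 at 26.3, 41.9 and 40 CPM in UIR and 50.9 and 59.3 in 2 UUO libraries, above the PT of the same group. Their Epcam was 73.5, 286 and 228 CPM in UIR and 238 and 585 in UUO, against 3.25 to 22.6 in injured PT. Their Cdh16 was 483, 532 and 566 CPM, and 622 and 467. Vim was 84, 148 and 96 CPM in UIR and 149 and 35.6 in UUO, 3.11 to 22.8 times the level expected from free RNA. Zeb2 was 57.8, 83 and 66.7 CPM, and 90.2 and 91, with no overlap with injured PT. In these sums, epithelial adhesion genes and Vim were thus both higher than in PT, with at most 23.7 CPM of Cdh11 and no Snai2 or Twist1. A Vim UMI was seen in only 8.11%, 20.3% and 15.4% of these cells in UIR, and 26.4% and 14.3% in UUO. At 1000 UMIs per cell it was 5.92% in UIR and 8.51% in 1 UUO library. With a UMI of Cdh1, Cdh16 or Epcam as well, it was 2.49% and 4.26%. The share with a Vim UMI and no leukocyte UMI was 5.92% and 2.13%. None of 7 members tested differed between the models in these cells, where 0.0446% of genes did. Clusters were built without the 10 genes, but a cluster against another is a description and has no test.

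Thin limb-like frTECs (47 control, 70 UIR and 31 UUO cells) were epithelial by all of these genes. Cdh1 was 110, 107 and 168 CPM in UIR, Epcam 1318, 1285 and 1318, and Cdh16 916, 834 and 1141. Vim was 5.37, 4.3 and 0 CPM, below the expected free RNA in each. Cdh6 was 37.6, 38.7 and 22.1 CPM, above every tubular class.

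One frTEC sub-cluster, with 20 control, 188 UIR and 104 UUO cells, held Vim, Cdh2, Cdh6 and Cdh11 in the sums over its cells. Its leading genes were Eln, Wnt16, Fxyd1, Sfrp2, Aebp1 and Tnc, an extracellular matrix glycoprotein. The markers Cldn1, Akap12 and Ncam1 gave it the name parietal-like, and it is called Tnc-rich here after a leading gene. Whether its cells are parietal cells was not tested. Median depth was 12962 UMIs per cell. Vim was 2383 and 2694 CPM in UIR replicates 2 and 3, and 3307, 3035 and 2828 CPM in UUO, 189 to 371 times the expected free RNA. Cdh11 was 296 and 300 CPM, and 280, 364 and 396 CPM. Cdh2 was 93.5 and 125 CPM, and 83.4, 105 and 112 CPM, its highest level in any class. Cdh6 was 82.5 and 94.5 CPM, and 63.1, 89.4 and 69.5 CPM, also its highest among those classes.

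The Tnc-rich cells kept Cdh16 and almost lacked Cdh1. Cdh16 was 311 and 362 CPM in UIR and 214, 253 and 226 in UUO, against 3.16 to 23.6 CPM in stroma of the same libraries. Cdh1 was 2.75 and 5.01 CPM, and 0, 2.08 and 3.86. Epcam was 37.6 and 25.8 CPM, and 6.76, 17.7 and 3.86. In the 2 models Cdh16 differed by -0.55 ± 0.16 (adjusted p = 0.396) and Epcam by -1.50 ± 0.42 (adjusted p = 0.385), so neither passed, in a class where 0.146% of genes did. With the title number as a block both passed, Cdh16 at -0.52 ± 0.15 (adjusted p = 0.0413) and Epcam at -1.52 ± 0.40 (adjusted p = 0.0160), and the genes called rose from 14 to 114. Snai2 was 2.25 to 6.24 CPM and Twist1 was 0 in all 5 libraries, and Zeb2 was 117 and 134 CPM, and 108, 136 and 137.

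Against Fibro 1 of the same 5 libraries, the Tnc-rich cells shared some stromal genes and lacked others. Vim stood at 224% to 313% of the Fibro 1 level, Tnc at 108% to 270% and the contractile gene Acta2 at 37.4% to 218%. Cdh11 stood at 39.1% to 62.6%, Zeb2 at 13.8% to 19.9% and Pdgfrb, a pericyte and fibroblast receptor, at 7.40% to 24.2%. The matrix genes of fibroblasts were far lower: Col1a2 stood at 2.05% to 5.04% (101 to 183 CPM), Col1a1 at 0.307% to 1.03%, Col3a1 at 0% to 0.158% and Dcn at 0% to 0.228%. Pdgfra had no UMI, against 419 to 600 CPM in Fibro 1. The nephron lineage factors Pax8 and Pax2 went the other way, at 269 to 349 and 83.4 to 132 CPM against at most 2.39 and 2.47 CPM in Fibro 1. The epithelial keratins overlapped: Krt8 was 0 to 113 CPM in the Tnc-rich cells and 1.54 to 15.1 CPM in Fibro 1, and Krt18 0 to 50.8 and 1.59 to 8.06 CPM, both with no UMI in the Tnc-rich cells of UUO replicate 3. The 5 libraries did not overlap in any of these genes but Acta2, Krt8 and Krt18.

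**Figure D4:**
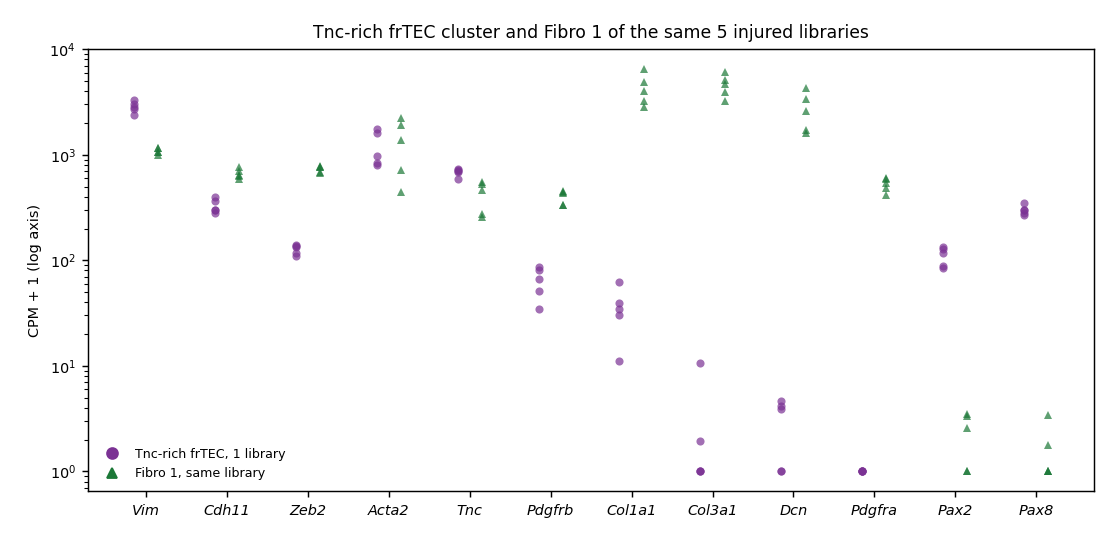
Levels of 12 genes (CPM + 1, log axis) in Tnc-rich frTECs (purple circles) and Fibro 1 (green triangles) of the same 5 injured libraries, 1 point per library. Vim is higher in the Tnc-rich cells (2383 to 3307 against 991 to 1168 CPM), Cdh11, Zeb2 and Pdgfrb are lower, as are Col1a1, Col3a1, Dcn and Pdgfra, and Pax2 and Pax8 are higher in the Tnc-rich cells, with at most 2.47 CPM in Fibro 1.

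A further cluster with Vim among its leading genes was left out of every class. It held 846 barcodes (19 control, 504 UIR and 323 UUO) with Tagln, Vim and Acta2 as its leading genes and a median of 830 UMIs, too shallow against its libraries to be named. Its part in the values above was not tested.

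Vim-positive and Vim-negative frTECs of 1 library were compared at an equal depth of 1000 UMIs per cell in the 5 libraries that had at least 20 of each. Cdh1 was 8.70 against 65.8 CPM, lower in Vim-positive cells in 4 of 5 libraries (log2 ratio -3.14 ± 1.78, SD, n = 5, exact sign-flip test, two-sided, adjusted p = 0.125). Cdh16 was 310 against 536 CPM, lower in 5 of 5 (-0.88 ± 0.69, exact adjusted p = 0.0938), and Epcam 45.4 against 698 CPM, lower in 5 of 5 (-4.45 ± 1.67, exact adjusted p = 0.0938). With 5 libraries the smallest p this test can give is 0.0625, so none could pass 0.05. At this depth 83.0% of Tnc-rich cells in UIR and 81.5% in UUO had a Vim UMI, and these cells were at least 142 of the 168 Vim-positive frTECs of UIR and 85 of the 92 of UUO, so the ratio mostly sets 1 sub-cluster against the rest.

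Cells with both a Vim UMI and a UMI of Cdh1, Cdh16 or Epcam were rare in the tubular classes. At 1000 UMIs per cell their mean share over libraries was 0% to 1.65%, and of 15 comparisons by an exact permutation test over libraries none could pass after adjustment, since the smallest p each could give was 0.0357 to 0.2. In CD-P it was 0 of 228 control cells, which allows a share of cells with both UMIs of up to 1.32% at this depth, and 1.12% ± 0.323 in UIR (SD, n = 3, exact permutation p = 0.0357, adjusted p = 0.536). In LOH it was 0.541% in controls, 1.06% in UIR and 1.65% in UUO. Without thinning, where depth was not made equal, the means were 0%, 8.68% and 14.3% in CD-P and 1.51%, 9.22% and 11.8% in LOH. For background, T and NK cells, which should lack the 3 epithelial genes, had a UMI of them in 1.19% of cells in controls, 6.79% in UIR and 5.11% in UUO at the same depth. With a Vim UMI as well it was 0%, 3.05% and 2.13%, and without thinning 5.39%, 15.5% and 15.7%. Vim itself was seen in 30.2%, 33.6% and 38.1% of T and NK cells at 1000 UMIs. Their share with both therefore does not measure stray Vim in LOH. In frTECs the share with both was 5.51%, 6.80% and 7.87%, and among Tnc-rich cells 27.7% in UIR and 15.4% in UUO. Control libraries held too few Tnc-rich cells for a mean, with both UMIs in 2 of 6, 1 of 6, 1 of 6 and 0 of 2 cells. Without thinning, the share of Tnc-rich cells with both was 50% to 100% in control libraries and 81.25% to 96% in injured ones. Tnc-rich cells with both were thus present in control kidneys too. Podocytes had 0.606% in controls, 5.23% in UIR, where libraries ran from 1.83% to 11.1%, and 0% in UUO.

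In the stroma, Cdh11, Vim and Twist1 changed in both models and the other 4 testable members did not pass, where 16.6% and 17.4% of genes tested changed. The median gene moved by 0.15 and 0.16 (log2) in these fits, and changes are to be read against that. Cdh11 was 0, 11.4 and 8.01 CPM in 3 control libraries, near the floor in pools of only 106521, 175626 and 124785 UMIs. It was 301, 413 and 351 CPM in UIR, and 436, 440 and 339 CPM in UUO (5.73 ± 0.43, adjusted p = 4.84e-08, and 5.88 ± 0.42, adjusted p = 2.70e-08). Vim rose from 685, 649 and 609 CPM to 1191, 1023 and 911 in UIR (0.84 ± 0.18, adjusted p = 0.00316) and 1139, 1181 and 1451 in UUO (1.08 ± 0.18, adjusted p = 0.000341). The former was not called with doublets kept (0.29). Twist1, a bHLH factor of mesenchyme, fell from 122, 102 and 80.1 CPM to 45, 28.6 and 31.1 in UIR (-1.39 ± 0.28, adjusted p = 0.00177) and 44.6, 40.5 and 43.8 in UUO (-1.11 ± 0.28, adjusted p = 0.00857). The latter was not called without control replicate 2 (-0.997, adjusted p = 0.0526) or 3 (-1.04, adjusted p = 0.0726). Neither Zeb2 (-0.02 and 0.15) nor Snai2 (0.37, adjusted p = 0.618, and 0.56, adjusted p = 0.381) passed. Between UUO and UIR 1.72% of genes differed in stroma and 0 of 7 members.

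Control stroma was almost only Fibro 3, with 77 of 84 cells, whereas Fibro 1 and 2 held most injured stroma. The members differed between the 3 clusters along the same lines. Cdh11 was 554, 583 and 766 CPM in Fibro 1 of UIR and 698, 641 and 632 of UUO, but at most 20.3 CPM in Fibro 2 and 15.2 in Fibro 3. Twist1 was 125, 102 and 80.1 CPM in Fibro 3 of controls, 120 in its single UIR library and 95, 65.4 and 96.8 in UUO, and at most 42.5 CPM in Fibro 1 and 45.4 in Fibro 2. Within Fibro 3 Twist1 did not pass in UUO against controls (-0.33 ± 0.31, adjusted p = 0.694), nor did Vim, at 693, 649 and 609 CPM against 916, 941 and 1090 CPM, although its groups did not overlap (0.50 ± 0.19, adjusted p = 0.204). There, 2.04% of genes passed and 0 of 3 members.

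Among the stromal clusters Snai2 was highest in Fibro 1. It was 53.2, 49.4 and 64.3 CPM in Fibro 1 of UIR and 68.2, 50.8 and 45.4 of UUO, above the 7.17 to 13.3 CPM of Fibro 2. Fibro 3 held 19.3, 39.9 and 24 CPM in controls and 22.8, 20.1 and 33.7 in UUO, but 0 in its single UIR library, where 3 UMIs would be 12.8 CPM. Among tubular and frTEC clusters its highest level was 49.4 CPM in a frTEC sub-cluster of 25 cells led by the urothelial genes Krt5, Krt15 and Upk3a. Zeb2 was 579, 677 and 763 CPM in Fibro 1 of UIR and 782, 765 and 688 of UUO, overlapping with Fibro 3 and above the 194 to 399 CPM of Fibro 2.

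Cdh16 and Vim came near to a difference between the models in stroma, and neither passed. In stroma as a whole, where 1.72% of genes passed, Cdh16 was 15.5, 23.6 and 11.1 CPM in UIR and 9.47, 3.16 and 4.79 in UUO, with no overlap (-1.50 ± 0.40, adjusted p = 0.0649). The level expected from free RNA was higher than each of these, at 32.9 to 50.03 CPM in UIR and 9.75 to 17.2 in UUO. That estimate rests in part on the endothelial list, at 129 to 145 CPM in stroma of UIR against 3.27 to 5.76 in LOH. In UUO the list was at 74.6 to 107 against 4.90 to 11.9 CPM. A higher list raises the estimate, so it cannot show how much of this Cdh16 was free RNA. The difference was called without UIR replicate 3 (-1.75, adjusted p = 0.0298), without UUO replicate 1 (-2.12, adjusted p = 0.0185) and with the title number as a block (-1.56, adjusted p = 0.0364). It was also called at a mitochondrial limit of 50% (-1.74, adjusted p = 0.0439) and at a clustering resolution of 2 (-1.71, adjusted p = 0.0204). Over all alternatives the adjusted p ran from 0.00252 without a filter on low counts to 0.979 with doublets kept. In Fibro 2 Vim was 1004, 928 and 833 CPM in UIR and 1426, 1341 and 2138 in UUO, with no overlap and a difference of 0.83 ± 0.20 that missed the threshold (adjusted p = 0.0660), where 0.974% of genes passed. With DESeq2 it passed (0.83 ± 0.22, adjusted p = 0.0297), and over all alternatives the adjusted p ran from 0.000753 without a filter on low counts to 0.364 without UIR replicate 3. It was also called without UUO replicate 1 (0.93, adjusted p = 0.0215) and without UUO replicate 2 (0.97, adjusted p = 0.0308), while without UUO replicate 3 it was 0.55 (adjusted p = 0.275). Further calls came without cells holding leukocyte UMIs (0.88, adjusted p = 0.0110) and at a mitochondrial limit of 15% (0.91, adjusted p = 0.0367). In Fibro 1, where 3.01% passed, it was 1429, 1063 and 991 against 1057, 1168 and 1160 CPM, which overlap. None of 5 members tested in Fibro 1 and none of 4 in Fibro 2 differed between UUO and UIR. Cdh2 was present in Fibro 2 (7.17, 19.7 and 22.7 CPM in UIR, and 18.6, 29.8 and 35.4 in UUO) and Fibro 3 (28.9, 17.1 and 8.01 CPM in controls, and 34.2, 10.1 and 25.3 in UUO), and was 0 to 5.18 CPM in Fibro 1. Cdh6 in the stroma was seen in Fibro 2, at 26.3, 11.8 and 11.3 CPM in UIR and 16.9, 14.9 and 6.65 in UUO.

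Other genes of the pathway were counted by lists. For comparison, the share of all genes tested that were higher in UIR and in UUO than in controls was 17.7% and 20.3% in LOH, 12.8% and 14.2% in DT/CNT, 9.62% and 17.8% in CD-P, 6.68% and 13% in CD-I, 6.11% and 2.63% in PT, and 10.8% and 11.7% in stroma. The share lower was 8.95% and 17.7% in CD-P, and 5.8% and 5.73% in stroma. Of 18 other cadherins, 1 to 3 had enough counts to test in each of these classes. P-cadherin (Cdh3) rose in the distal nephron. Mean Cdh3 went from 10.8 CPM in control LOH to 72.7 in UIR and 83.2 in UUO (2.41 and 2.60), from 10.7 to 71.4 and 98.7 CPM in DT/CNT (2.44 and 2.84), and from 17.8 to 95.3 and 169 CPM in CD-P (2.32 and 3.12). In CD-P it was also higher in UUO than in UIR (0.79, adjusted p = 0.00716), and in CD-I it rose in UUO from 2.05 to 23.2 CPM (3.25, adjusted p = 0.0164).

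Of 17 cell junction genes (catenins, desmosomal and tight junction genes), 13 were higher and none lower in LOH in either model, with medians of 0.98 and 0.97 beside 0.08 and 0.07 over all genes tested. In DT/CNT 13 were higher and none lower, with medians of 0.74 and 0.92 beside 0.02 and 0.03 over all genes. In CD-P 7 were higher and 2 lower in UIR, and 9 and 2 in UUO (medians 0.23 and 0.39). In CD-I 4 and 8 were higher and none lower (medians 0.23 and 0.40), and in PT 3 and 1 of 16 were higher and none lower. Examples are the tight junction protein occludin (Ocln) in CD-P (25.8 CPM in controls, 53.8 in UIR and 76.5 in UUO) and nectin-2, under its older symbol Pvrl2, in CD-P (53.2, 149 and 203 CPM). In stroma 3 and 2 of 9 were lower, such as afadin (Mllt4), at 136 CPM in controls, 40.7 in UIR and 46.9 in UUO. Control stroma was almost only Fibro 3. Within Fibro 3, in UUO against control, 1 of 9 tested was higher and none lower.

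Of 7 epithelial regulators, Elf3, an epithelial ETS factor, rose from 16 to 166 and 221 CPM in LOH, from 13.8 to 75.6 and 145 in DT/CNT, from 43.9 to 213 and 321 in CD-P, and from 41.9 to 181 and 269 in CD-I. Ehf, of the same family, fell in CD-P from 347 to 223 and 140 CPM. In LOH 5 of 7 were higher and 1 lower in UIR, and 4 higher and none lower in UUO. Elsewhere fewer passed: 1 of 6 was higher in DT/CNT in each model, 1 of 7 higher and 1 lower in CD-P in each, 1 and 2 of 6 higher in CD-I, and 1 and 0 of 5 in PT. Of 6 further EMT transcription factors (Snai1, Snai3, Twist2, Zeb1, Prrx1 and Foxc2), none had enough counts to test in LOH, DT/CNT, CD-P or CD-I, and the 1 tested in PT did not pass. In stroma Prrx1, a fibroblast homeobox gene, rose from 0 to 63.3 and 93.4 CPM and Foxc2 from 3.13 to 30.4 and 30.6 CPM, and 1 of the 4 tested fell. Control stroma was almost only Fibro 3. Within Fibro 3, in UUO against control, the 1 such factor tested did not pass.

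Of 14 mesenchymal genes, 5 of 6 tested were higher in LOH in both models, 6 of 9 in PT of UIR and 2 of 9 in PT of UUO, and in CD-P 3 and 4 of 4. In DT/CNT both of the 2 tested and in CD-I the 1 tested were higher in each model. These include abundant genes of leukocytes and fibroblasts, and the leukocyte list moved with them as given for Vim. In CD-P Lgals1 went from 29.6 to 78.9 CPM in UIR, and Sparc from 3.95 to 75.9 CPM in UUO. In stroma 10 and 11 of 14 rose, where control cells were almost only Fibro 3 and injured cells mostly Fibro 1 and 2. Within Fibro 3, in UUO against control, 2 of 9 tested were higher and 1 was lower, where 2.04% of genes changed in either direction. The part of free RNA in these tubular levels was not tested.

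The genes whose levels followed each member most closely were found over 37 class-by-group means and 11837 genes, by Pearson r of log2(mean CPM + 5). These points share libraries and classes and r is a description. Cdh1 was closest to Tmprss2 (0.973), Tfcp2l1 and Klhdc7a, Cdh16 to Klhdc7a (0.979), Rnf128 and Pou3f3, and Epcam to Ehf (0.979), Tmem30b and Grhl2. Cdh2 was closest to Epha7 (0.833), Tceal3 and Cspg4, Cdh6 to Cacna1g (0.90), Wnt16 and Erich2, and Cdh11 to Nnmt (0.926), Loxl1 and Aldh1a2. Vim was closest to Emp3 (0.955), Msl3l2 and Iffo2, Snai2 to Ccdc8 (0.939), Mfap2 and Ecm2, Zeb2 to Tpst1 (0.895), Dse and Cd302, and Twist1 to S1pr3 (0.984), Gucy1a2 and Lrrc17.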

How the data were processed

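The authors deposited, for each library, the raw UMI counts of every gene in every barcode, made with Cell Ranger (3.1.0 in the submitters' processing notes) on mm10. The counts carry neither the ambient RNA nor the doublet correction that the study's methods describe.

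Cells were called per library by a UMI cutoff (the 99th percentile over the top 3000 barcodes, divided by 10), plus barcodes of at least 500 UMIs that differed from the empty droplets (ranks 45000 to 90000) at an adjusted p of 0.01. Barcodes over 30% mitochondrial or 5% hemoglobin UMIs or under 200 genes were dropped, then the 7.5% with the highest doublet score. Cells were clustered (leidenalg 0.10.2, 2000 variable genes without the 10 genes and the markers, 40 components, resolution 1) and named by markers. DT and CNT were joined after the marker tables had been seen. UMIs were summed per class and library and tested with edgeR 4.0.16 (filterByExpr, TMM, 3 groups in one fit, no block). Shares used exact permutation tests (scipy 1.17.1) on cells thinned to 1000 UMIs. In data simulated on LOH, UIR against control (11358 genes), 76% of genes raised 2-fold and 100% of those raised 4-fold were recovered. Of genes lowered to 0.5 and 0.25 of their level, 64% and 92% were recovered. The changed genes were drawn from well-counted ones, so recovery of genes near the floor was not measured.

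Named genes are the 10 members, the 3 most similar genes of each, and, from each list, some of those with the largest fold changes past the threshold. Others of that kind are not given, such as Cd44 in CD-P and Col1a1 and Fn1 in stroma. The members and lists were chosen with earlier results of these data known. Each library is 1 mouse per the study's methods. Bounds and shares cover counting error only. Alternatives were DESeq2 1.42.0, other filters, limits and clusterings, and leaving out each library. One of the junction genes that the naming rule picked is not reported here.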

Additional observations from a re-analysis of the deposited data

Results flagged for a closer look

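A single result was set apart by a test of the difference between the models: Cdh2 in CD-P differed between UUO and UIR, by -5.16 on the log2 scale (SE 1.18, edgeR adjusted p = 0.0110), where the controls are the shared reference. UUO libraries held 0 Cdh2 UMIs and UIR libraries 15, so the fitted value is no bound, and the level was at least 7.60-fold lower in UUO. Of 361 UUO cells of the class, 1 lay in the Aqp4-led cluster that carries Cdh2, against 30 of 350 UIR cells. Of 30 sets of control values for members and classes, none had a library far from the others by Dixon's criterion, under which chance would pick about 1 in 20.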

How the results depend on the processing

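No result called in the reported fit changed direction under an alternative. In LOH, Cdh1 of UIR and Cdh16 of UUO, uncalled there, passed in opposite directions at mitochondrial limits of 15% and 50%, as given with their values. Cdh1 of UUO in LOH, also uncalled there, passed as a fall at 50% and did not pass at 15%. Counts of calls below are given without the share of all genes called under the same alternative. Changes in these counts are therefore no result about the members. The 9 calls of UUO against control in tubular classes became 5 of 9 tested with a mitochondrial limit of 15%, where 5 of the 9 could not be tested and the other 4 were called, 14 with 50%, 14 with doublets kept, and 5 of 17 tested with DT and CNT named apart, an alternative chosen after seeing the data. The 1 call of UUO against UIR in tubular classes became 3 with DESeq2, 2 without a filter on low counts, and 0 with a mitochondrial limit of 15% or without cells holding leukocyte UMIs. With only 2 groups in the fit or with DT and CNT apart there were also 0 calls, but Cdh2 in CD-P could not be tested. The 0 calls of UUO against UIR in frTECs, stroma and the fibroblast clusters, with frTEC sub-clusters not counted, became 3 without a filter and 1 with DESeq2, with the title number as a block, with mitochondrial limits of 15% and 50%, without cells holding leukocyte UMIs, and at a clustering resolution of 2. With the block it was Cdh16 in stroma (-1.56, adjusted p = 0.0364). With doublets kept, the log2 ratios of Vim-positive frTECs were -3.19 for Cdh1, -0.96 for Cdh16 and -3.25 for Epcam over 6 libraries.

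Leaving out 1 library at a time gave 8 to 11 calls of UIR and 7 to 10 of UUO against control in tubules, 0 to 1 between the models there, 5 to 6 in stroma, and 0 to 2 between the models in frTECs and stroma. The log2 ratios of Vim-positive cells then ran from -3.93 to -2.89 for Cdh1, -1.03 to -0.63 for Cdh16 and -5.01 to -3.86 for Epcam. The shares with both UMIs gave 0 calls, the one outcome their test allowed. With the title number as a block, 11, 10 and 1 calls were made in tubules. UIR and UUO libraries of the same title number correlated above 0.1 in every block only in frTECs. There r was 0.49 for the unnumbered libraries, 0.52 for number 1 and 0.17 for number 2.

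Among single genes, 603 values kept their call and 16 lost it, beside those that could not be tested, which for Vim in CD-P was 11 alternatives in each model. Cdh1 in DT/CNT fell to 0.31 in UIR and 0.33 in UUO with the mitochondrial limit at 50%. Vim in stroma of UIR fell to 0.29 with doublets kept, and Cdh16 in LOH of UIR to 0.05 at the 50% limit. The calls that rest on 1 library are given with their results. Libraries of the same kind of control title were not tested apart, members at 0 in a class were not detectable at this depth, and the controls lost more barcodes to the mitochondrial limit than the injured kidneys.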
